A study of Mus musculus with 12 samples.

Results

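Keratins are the proteins of the intermediate filaments that brace epithelial cells. Each filament is built from a type I keratin paired with a type II keratin, and the pair a cell makes differs between tissues and between the layers of a tissue. Keratin 8 and keratin 18 are the usual pair of simple, single-layered epithelium and mark the luminal cells of the prostate, whereas keratin 5 and keratin 14 mark its basal cells. Keratin 7 is a further type II keratin of glandular and ductal epithelium, keratin 19 is a type I keratin of ducts and of cells between the basal and the luminal state, keratin 20 is a type I keratin best known from the gut and the urothelium, and keratin 23 is a less studied type I keratin.

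The 6 simple keratin genes Krt7, Krt8, Krt18, Krt19, Krt20 and Krt23 were described here. They were chosen by name, and all 6 were found among the 24674 genes of the deposited table. RNA had been sequenced from 12 samples of mouse organoids, which are small 3-dimensional cultures grown from the basal cells of the prostate. The mice were of the C57BL/6 strain and wild type. The groups were vehicle, UK5099, butyrate, and UK5099 with butyrate (the combination), with 3 replicates each. UK5099 is an inhibitor of the carrier that brings pyruvate into mitochondria. Butyrate is an inhibitor of the enzymes that take acetyl groups off histones. Ages, doses and times were not given in the labels of these samples. The labels do not say whether replicates came from separate cultures or animals, so p-values measure the spread between these samples, which may be technical. Libraries held between 33251718 and 43498683 fragments, a number recovered from the deposited values. The first replicate of UK5099 and the first replicate of the combination stood apart from the others of their groups, with a chi-square per gene between 6.73 and 7.36 against 1.97 to 2.74 for all other replicate pairs. All 6 keratins kept their calls and directions in all 6 comparisons when both of these libraries were left out.

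The genes lie in the 2 keratin clusters of the mouse genome. In the coordinates of the deposited table, for which the submitters' processing notes name GRCm39, Krt7 is at chr15:101308924-101328194, Krt8 at chr15:101905133-101912917 and Krt18 at chr15:101936615-101940462. Krt8 is on the minus strand and Krt18 on the plus strand, 23697 bp apart, so that they are transcribed away from each other. Krt20 at chr11:99319229-99328976, Krt23 at chr11:99368800-99383963 and Krt19 at chr11:100031636-100039491 are all on the minus strand. Krt20 and Krt23 are neighbours among the keratins of the table, 39823 bp apart.

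The promoters of 4 of these genes are shown because Krt8 and Krt18 lie side by side and both fell with butyrate, while Krt20 rose with UK5099 and its neighbour Krt23 with butyrate. The sequences are from RefSeq on GRCm38.p6 and run from 250 bases before to 20 bases after the annotated start, 5′ to 3′ on the strand of the gene, so that their coordinates are not those of the deposited table. The RefSeq promoter table matched 5 of the 6 genes, all except Krt19. Capitals mark the TATA box (TATAAA), the GC box (GGGCGG), the AP-1 motif (TGANTCA) and the GATA motif (AGATAA), searched on both strands, and a reverse match is shown as it stands on the printed strand.
Krt8 (chr15:102004323-102004592, minus strand): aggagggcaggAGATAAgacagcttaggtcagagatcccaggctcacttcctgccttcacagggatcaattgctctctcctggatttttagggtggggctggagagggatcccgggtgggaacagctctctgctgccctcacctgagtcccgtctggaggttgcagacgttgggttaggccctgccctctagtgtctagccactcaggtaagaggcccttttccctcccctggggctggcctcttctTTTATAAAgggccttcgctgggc
Krt18 (chr15:102027966-102028235, plus strand): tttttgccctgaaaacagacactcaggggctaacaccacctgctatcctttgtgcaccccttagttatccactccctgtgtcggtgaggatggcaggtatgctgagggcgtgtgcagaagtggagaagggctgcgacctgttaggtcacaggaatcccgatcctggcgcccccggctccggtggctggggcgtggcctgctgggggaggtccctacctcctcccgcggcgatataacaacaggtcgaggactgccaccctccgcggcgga
Krt20 (chr11:99438134-99438403, minus strand): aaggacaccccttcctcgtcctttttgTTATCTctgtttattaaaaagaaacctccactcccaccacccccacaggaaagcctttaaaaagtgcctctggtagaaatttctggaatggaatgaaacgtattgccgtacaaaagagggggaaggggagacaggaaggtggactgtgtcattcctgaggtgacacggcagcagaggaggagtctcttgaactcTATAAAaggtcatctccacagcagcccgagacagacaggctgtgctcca
Krt23 (chr11:99493101-99493370, minus strand): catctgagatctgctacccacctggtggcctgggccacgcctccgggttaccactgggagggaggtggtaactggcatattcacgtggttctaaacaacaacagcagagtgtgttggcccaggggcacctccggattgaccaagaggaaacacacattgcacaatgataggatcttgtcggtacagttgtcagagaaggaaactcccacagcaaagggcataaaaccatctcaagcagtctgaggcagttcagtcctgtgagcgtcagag

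A TATA box was present at base -29 of Krt20, and in Krt8 it lay on the annotated start, where matches on both strands overlapped at bases -3 and -1. It was in 12.9% of 32851 mouse promoters of this length. The GATA motif was found at base -239 of Krt8 and base -223 of Krt20, against 10.5% of all promoters. The GC box was found in none of the 4 sequences shown and 4 times in that of Krt7, at bases -141, -128, -56 and -24, against 34.1% of all promoters. The AP-1 motif, in 7.23% of all promoters, was in none of the 5. These matches are letters in a window and no measure of binding.

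Gene levels were given as TPM, fragments divided by the length of the gene and scaled to the same total in each sample. The length used was the whole span of the gene with its introns, so TPM is compared here between samples and not between genes. The first question was how each drug alone changed these keratins. A gene was called in a limma fit when its adjusted p-value was under 0.01 and its coefficient above 1 or below -1, where the coefficient is the difference between groups in log2(TPM + 1). UK5099 changed 2 of the 6 keratins, with Krt8 lower and Krt20 higher, where 1.84% of all genes were called. Butyrate changed 3, with Krt8 and Krt18 lower and Krt23 higher, where 3.54% of all genes were called. No member's values overlapped with vehicle in either comparison, as was the case for 49.2% of all genes with UK5099 and 60.1% with butyrate. The 2 comparisons share the vehicle samples. In bulk RNA, fewer cells of a kind and less RNA per cell cannot be told apart.

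**Figure D1:**
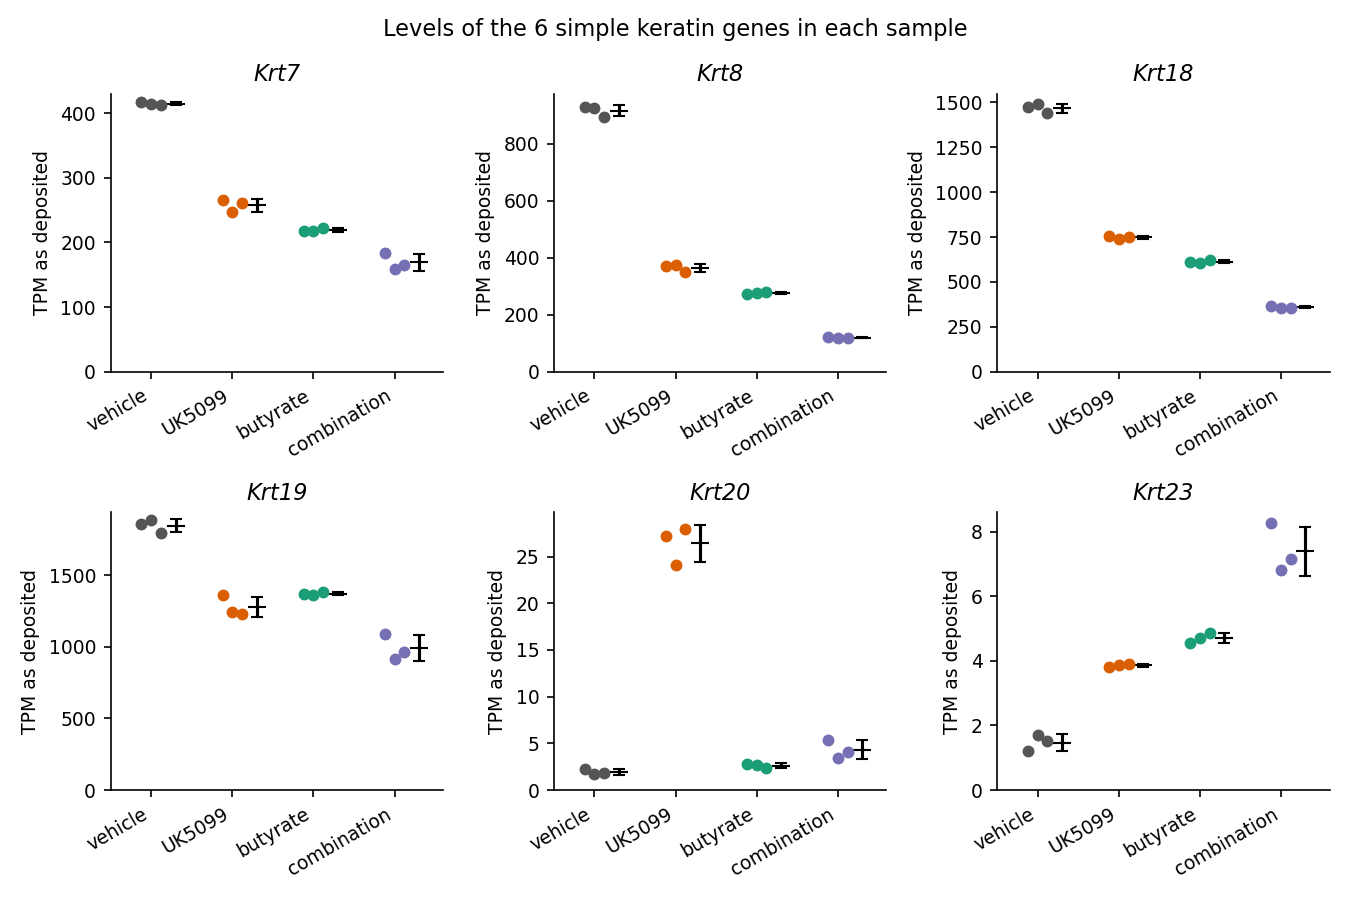
TPM as deposited (vertical axes, linear and starting at 0) of each of the 6 simple keratin genes in the 3 samples of each group, with the mean and SD beside the points. Krt7, Krt8, Krt18 and Krt19 were highest in vehicle and lowest in the combination, Krt20 was far higher with UK5099 alone than in any other group, and Krt23 was lowest in vehicle and highest in the combination.

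Krt8 codes for the type II keratin of the luminal pair. Its level was 929, 927 and 894 TPM in vehicle, 370.0, 373 and 348 TPM with UK5099, and 272, 275 and 279 TPM with butyrate. The groups did not overlap, and the spread within each was small beside the steps between them. Relative to vehicle, the mean was 39.7% with UK5099 and 30.1% with butyrate. The coefficients were -1.33 ± 0.03 (SE, n = 3 per group) for UK5099 and -1.73 ± 0.03 for butyrate, with limma adjusted p-values of 1.74e-09 and 1.63e-10. Both calls held in every setting tried.

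Krt18, its type I partner, differed by less from vehicle. It stood at 1473, 1489.9 and 1440.3 TPM in vehicle, 757, 739 and 748 TPM with UK5099, and 613, 606 and 620 TPM with butyrate. Again no values overlapped. The mean was 50.9% of vehicle with UK5099 and 41.8% with butyrate. The UK5099 coefficient, -0.97 ± 0.02 (SE, n = 3 per group), had a limma adjusted p-value of 8.50e-10 but missed the limit of 1 on size, so that it was not called. With quantile normalisation it was -1.05 and was called. The butyrate coefficient of -1.26 ± 0.02 was called, with an adjusted p-value of 8.52e-11. That call depended on scaling. Over the 13345 genes with a mean of 1 TPM or more, UK5099 had a median coefficient of -0.12, butyrate one of -0.30 and the combination one of -0.41. After scaling the samples by their median of ratios, which brings these medians to 0.00, -0.03 and -0.03, the butyrate coefficient of Krt18 was -0.94 and not called.

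Krt7 was lower than vehicle with either drug, with smaller coefficients. Its values were 418, 415 and 413 TPM in vehicle, 265, 246 and 261 TPM with UK5099, and 217, 218 and 223 TPM with butyrate. Vehicle lay above both treatments without overlap. The coefficients of -0.69 ± 0.05 and -0.92 ± 0.05 (SE, n = 3 per group) had limma adjusted p-values of 3.20e-06 and 1.67e-07, and neither passed the limit on size.

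Krt19 was the most abundant of the 6 per length of transcript in every group and had the smallest coefficients of the 4 that were lower than vehicle. It was at 1861, 1885 and 1798 TPM in vehicle, 1360.3, 1240.4 and 1232 TPM with UK5099, and 1373, 1360.0 and 1382 TPM with butyrate. The vehicle samples were the highest here too. The UK5099 coefficient was -0.53 ± 0.06 (SE, n = 3 per group, limma adjusted p = 7.22e-05). The butyrate coefficient of -0.43 ± 0.06 (adjusted p = 0.000177) stood beside the median shift of -0.30 given above, and after median of ratios scaling it was -0.11 with an adjusted p-value of 0.174.

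Krt20 behaved unlike the other members. It was low in vehicle, with 2.31, 1.74 and 1.78 TPM, and stood at 27.2, 24.1 and 27.9 TPM with UK5099 but at 2.83, 2.72 and 2.34 TPM with butyrate. The lowest UK5099 sample was far above the highest of either other group. In fragments, which were whole numbers in 12 of 12 samples, vehicle held between 109 and 149 and UK5099 between 1803 and 2253. The mean TPM was 13.6 times that of vehicle with UK5099 and 1.35 times with butyrate. The UK5099 coefficient was 3.22 ± 0.13 (SE, n = 3 per group, limma adjusted p = 9.19e-08), and the pseudocount of 1 makes it an understatement at these levels. For butyrate the coefficient was 0.30, with a 95% interval from 0.01 to 0.60 and an adjusted p-value of 0.0806. After median of ratios scaling it was 0.51 with an adjusted p-value of 0.00930, still under the limit on size.

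Krt23 was higher in every sample of either drug than in vehicle. Vehicle samples were at 1.19, 1.70 and 1.51 TPM, UK5099 samples at 3.82, 3.86 and 3.91 TPM, and butyrate samples at 4.55, 4.69 and 4.86 TPM. The 3 groups did not overlap, and the order was vehicle, UK5099, butyrate. The means were 2.63 and 3.20 times that of vehicle. Butyrate gave a coefficient of 1.21 ± 0.08 (SE, n = 3 per group), called with a limma adjusted p-value of 6.24e-07. UK5099 gave 0.98 ± 0.08 with an adjusted p-value of 6.78e-06, just under the limit on size. It was called, at 1.05, after median of ratios scaling and, at 1.35, with a pseudocount of 0.1. Its fragments were also whole in 12 of 12 samples, from 120 to 1380.

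**Figure D2:**
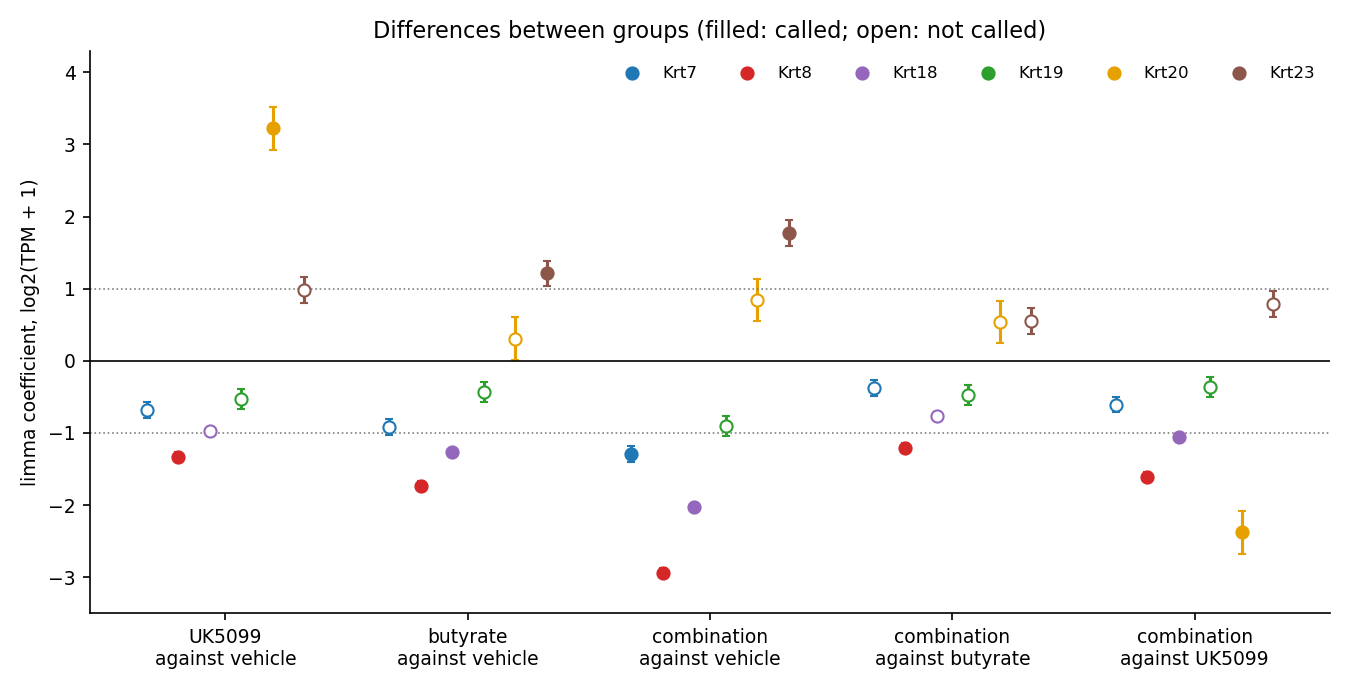
The limma coefficient in log2(TPM + 1) of each of the 6 genes (vertical axis) in 5 comparisons between groups (horizontal axis), with 95% intervals; filled points passed both limits, open points did not, and dotted lines mark coefficients of 1 and -1. Krt8 passed in all 5 comparisons and Krt20 changed sign between UK5099 against vehicle and the combination against UK5099.

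The next question was what the drugs did together. The combination changed 4 of the 6 keratins against vehicle, where 6.42% of all genes were called, with Krt7, Krt8 and Krt18 lower and Krt23 higher. Krt8 was at 120.2, 117 and 119 TPM, 12.96% of the vehicle mean, with a coefficient of -2.94 ± 0.03 (SE, n = 3 per group, limma adjusted p = 5.52e-12). Krt18 was at 366, 356 and 356 TPM, 24.5% of vehicle, with a coefficient of -2.03 ± 0.02 and an adjusted p-value of 4.70e-12. These were the lowest values of both genes in the data.

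Krt7 was at 184, 158 and 166 TPM in the combination, with a coefficient of -1.29 ± 0.05 (SE, n = 3 per group, limma adjusted p = 9.83e-09), which after median of ratios scaling was -0.83 and not called. Krt19 was at 1090.3, 916 and 967 TPM, with a coefficient of -0.90 that was not called. The first replicate of the combination was the highest of its group for both genes. Krt23 reached 8.25, 6.80 and 7.14 TPM, 5.04 times the vehicle mean, with a coefficient of 1.77 ± 0.08 and an adjusted p-value of 2.85e-08.

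Against butyrate alone, adding UK5099 changed 1 of the 6 keratins, Krt8, where 0.908% of all genes were called. Its coefficient was -1.21 ± 0.03 (SE, n = 3 per group, limma adjusted p = 7.52e-09). Krt18 was also lower in all 3 samples, but its coefficient of -0.77 was under the limit on size. Against UK5099 alone, adding butyrate changed 3, Krt8, Krt18 and Krt20, all lower, where 1.97% of all genes were called. The coefficients were -1.61 for Krt8, -1.06 for Krt18 and -2.38 for Krt20. Krt18 lost this call after median of ratios scaling, at -0.74, and in 4 other settings.

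The largest departure from the other 5 was that of Krt20. In the combination it was at 5.41, 3.46 and 4.10 TPM, all above the vehicle and butyrate samples and all far below the UK5099 samples. Against UK5099 alone its coefficient was -2.38 ± 0.13 (SE, n = 3 per group, limma adjusted p = 2.76e-07). Against vehicle it was 0.84, with an adjusted p-value of 0.000301, and was not called, although it was called at 1.18 after median of ratios scaling and at 1.10 with a pseudocount of 0.1. The interaction term, the effect of UK5099 in the presence of butyrate minus its effect without, was -2.68 ± 0.18 for Krt20 with an adjusted p-value of 1.13e-05. Krt20 was the 1 keratin of the 6 called for the interaction, where 1.01% of all genes were called.

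For the other members the coefficient of the combination was set against the sum of the separate ones. For Krt8 the separate coefficients added to -3.06 and the combination gave -2.94, an interaction of 0.12 with a 95% interval from 0.04 to 0.21 and a limma adjusted p-value of 0.0518. For Krt18 the sum was -2.23 and the combination -2.03, so that the interaction of 0.20 was small but had an adjusted p-value of 0.000408. An adjusted p-value under 0.01 for this term was found in 13.4% of all genes, whatever its size. For Krt7 the interaction was 0.31 (adjusted p = 0.0111, 95% interval from 0.15 to 0.47), for Krt19 0.06 (adjusted p = 0.721, 95% interval from -0.13 to 0.26) and for Krt23 -0.43 (adjusted p = 0.0226, 95% interval from -0.68 to -0.18). In a voom fit on fragments it was 0.31 for Krt7 (limma adjusted p = 7.74e-06) and -0.75 for Krt23 (adjusted p = 0.000252). Both stayed under the limit on size.

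**Figure D3:**
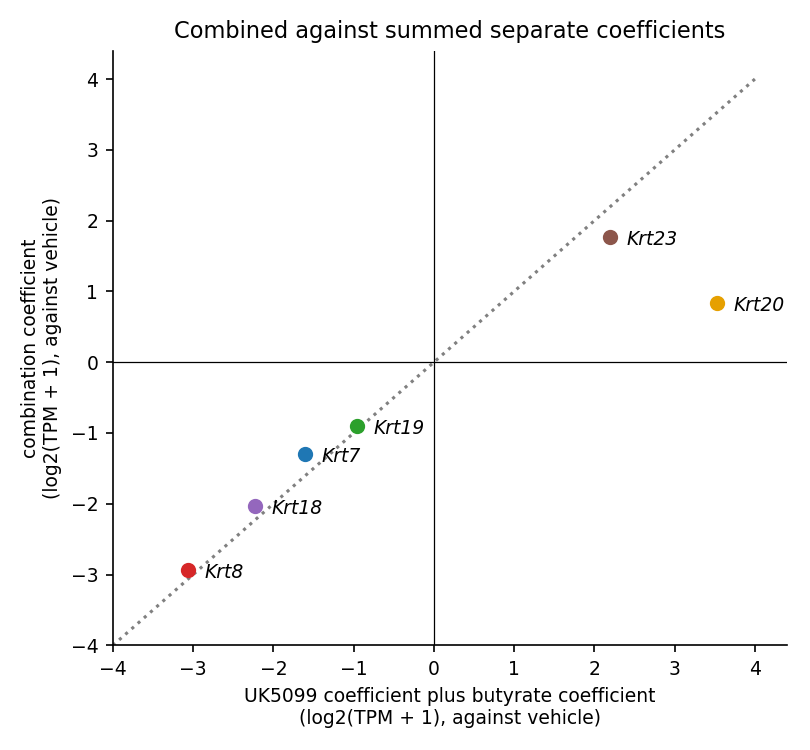
The coefficient of the combination against vehicle (vertical axis) set against the sum of the UK5099 and butyrate coefficients (horizontal axis), both in log2(TPM + 1), for the 6 genes; the dotted line marks equal values. Krt20 lies far below the line, at 0.84 where the sum was 3.53, and Krt23 below it at 1.77 where the sum was 2.20, while Krt7 lies above it at -1.29 where the sum was -1.60.

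To compare genes with each other, fragments were divided by the length of the principal transcript of each gene and by the depth of its sample, which gives FPKM, fragments per kilobase at a common depth. On this scale the order of mean levels in vehicle was Krt19 at 1786, Krt18 at 762, Krt8 at 706, Krt7 at 379, Krt23 at 2.76 and Krt20 at 1.91 FPKM. Only Krt23 and Krt20 overlapped between neighbours. With UK5099 Krt20, at 27.4, stood above Krt23, at 7.67, without overlap. In the combination Krt7, at 202, stood above Krt8, at 120, again without overlap. The order of the 3 abundant genes below Krt19 depends on how reads and lengths are assigned. With the fragments of the pseudogene Krt8-ps, described further on, added to Krt8, its vehicle level was 919 FPKM, above Krt18. In the combination it was then 155 FPKM, still below Krt7. The principal transcript used for Krt7 has 4094 bp against 1958 bp for Krt8. By TPM over all exonic bases instead, the combination had Krt7 at 267 to 307 and Krt8 at 286 to 292 TPM, so that their values overlapped.

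The balance within the luminal pair shifted in the same steps. On this per-length scale vehicle had a ratio of Krt8 to Krt18 of 0.927 ± 0.008 and UK5099 one of 0.722 ± 0.029, while butyrate had 0.667 ± 0.007 and the combination 0.491 ± 0.007 (SD, n = 3). The highest butyrate value, 0.674, was below the lowest UK5099 value, 0.692. The ratio of Krt7 to Krt8 went the other way, from 0.537 ± 0.009 in vehicle to 1.69 ± 0.11 in the combination. Krt19 to Krt18 was 2.34 ± 0.02 in vehicle and 5.14 ± 0.38 in the combination, with UK5099 at 3.18 ± 0.15 and butyrate at 4.17 ± 0.01 between them. With Krt8-ps added to Krt8, the ratio of Krt8 to Krt18 was 1.21 ± 0.01 in vehicle and 0.638 ± 0.010 in the combination, so that Krt8 was then the higher of the pair in vehicle. These ratios are within a sample and do not move when a sample is scaled as a whole. No test was made on them.

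Together the 6 genes held 46.5% ± 0.24 of the fragments per kb of 38 keratin genes in vehicle (SD, n = 3). Their part was 29.4% ± 0.18 with butyrate, 19.1% ± 0.73 with UK5099 and 14.7% ± 0.37 in the combination. The share was thus lower with UK5099 than with butyrate, although Krt8 and Krt18 themselves were lower with butyrate. Krt19, the most abundant member, was at 1306 FPKM with UK5099 and 1650 FPKM with butyrate. Of the other keratins in this sum, Krt14, given as 1 example and on the deposited scale, was at 5047 TPM with UK5099 and 1391 TPM with butyrate. What each keratin added to the difference in share was not tested.

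**Figure D4:**
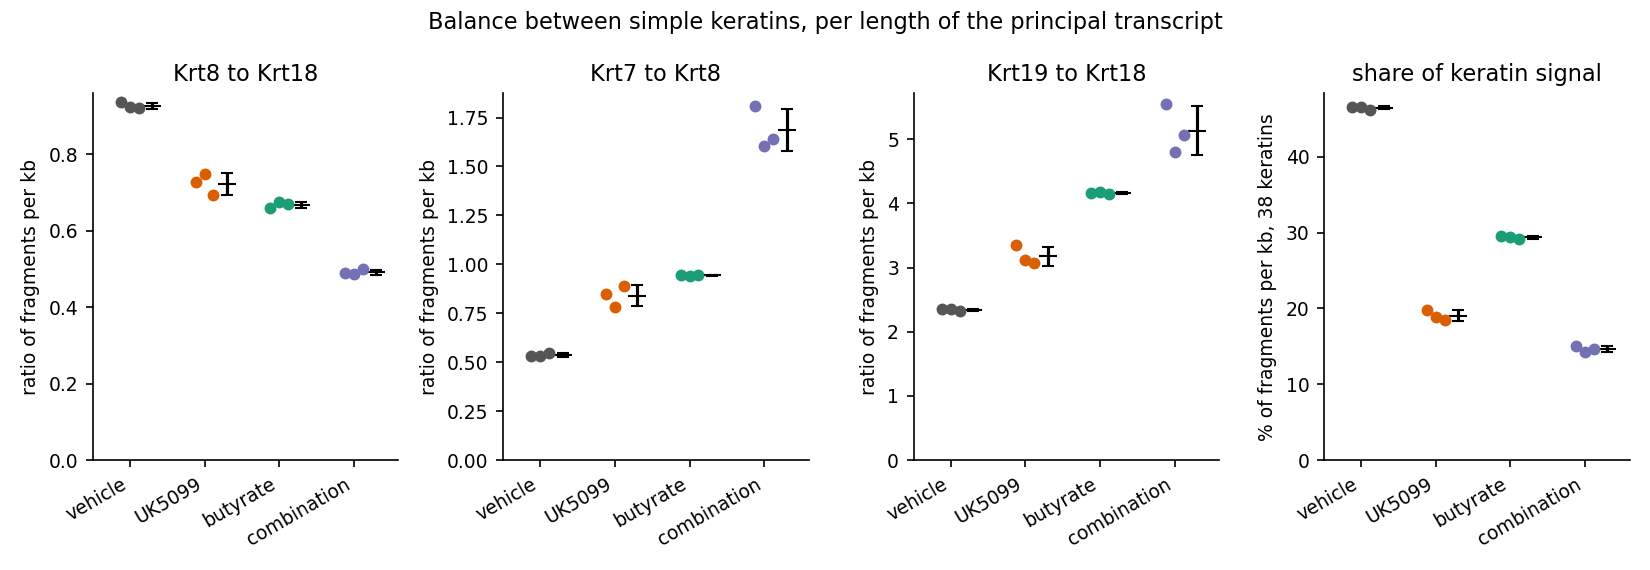
Ratios of fragments per kb of principal transcript between members (first 3 panels) and the percent of keratin fragments per kb held by the 6 genes (last panel) in each sample, with the mean and SD of the 3 samples beside the points; all vertical axes start at 0. Between vehicle and the combination the mean of Krt8 to Krt18 went from 0.927 to 0.491, that of Krt7 to Krt8 from 0.537 to 1.69 and the keratin share from 46.5% to 14.7%.

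The level of Krt8 is uncertain in 1 respect. The table also lists Krt8-ps, a processed pseudogene of Krt8 at chr7:23056550-23057494, whose transcript is 98.6% identical to that of Krt8 over 941 bp. Vehicle samples listed it at 2271 ± 35.4 TPM and UK5099 samples at 939.6 ± 19.3, while butyrate samples listed it at 699 ± 11.3 and those of the combination at 293 ± 4.92 (SD, n = 3). Its short span makes these values high. In fragments it held 22.5% to 24.4% of the pair in all 12 samples, and its 3 values in the combination, between 2743 and 2999.5 fragments, were fractional, as values are when reads are divided between genes. Its coefficients against vehicle, -1.27, -1.70 and -2.95, were close to those of Krt8. With its fragments added to those of Krt8 in a voom fit, which is on another scale, UK5099 gave a Krt8 coefficient of -1.17, butyrate -1.41 and the combination -2.48, all called. For Krt18, 3 pseudogenes together came to between 0.123% and 0.196% of its fragments, and none was found in the table for the other 4 genes. For Krt7, Krt18 and Krt19, which had at least 13601 fragments in each sample, whole and divided values could not be told apart, and the same holds for the vehicle values of Krt8-ps.

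**Figure D5:**
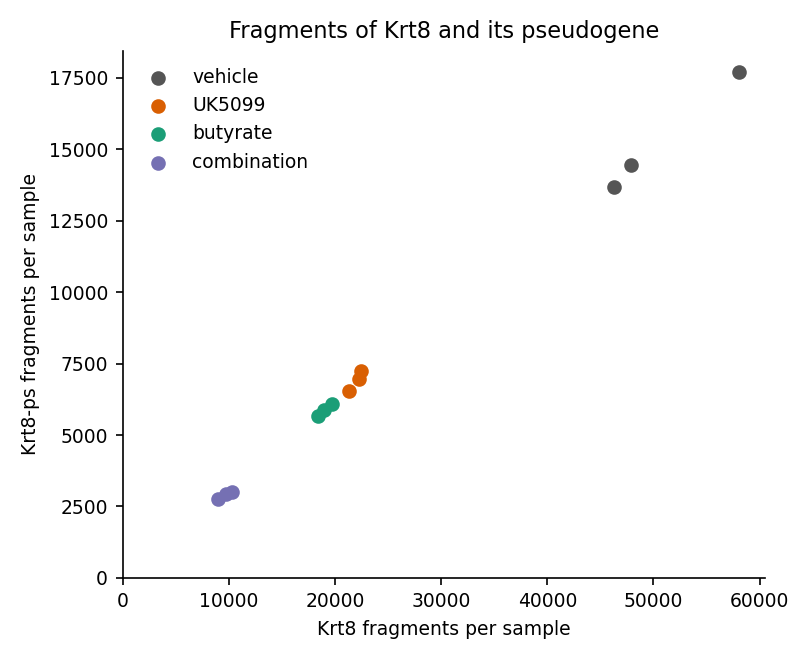
Fragments assigned to the pseudogene Krt8-ps (vertical axis) against fragments assigned to Krt8 (horizontal axis) in each of the 12 samples, coloured by group; both axes start at 0 and depth is not corrected. The samples lie along 1 line through the groups, with Krt8-ps at 22.5% to 24.4% of the pair.

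The nearest other keratin genes on either side were looked at in the same comparisons. Only keratins in the deposited table were counted as neighbours, so keratins missing from it may lie between. Krt78, a suprabasal keratin and the keratin gene next to Krt8 on the side away from Krt18, was higher in all 3 treated groups, with coefficients of 2.01, 1.60 and 1.35 for UK5099, butyrate and the combination, all called. Krt14, a basal keratin 54496 bp from Krt19, was called higher with UK5099 (1.59) and the combination (1.12). Krt15, on the other side of Krt19, Krt39, next to Krt23, and Krt80 and Krt87, beside Krt7, were called in none of the 3 comparisons. Krt12, next to Krt20, was under 0.1 TPM on average in all groups. Of the 21 keratin genes of the table on chromosome 15, those called lower with UK5099 were Krt8 alone, and with butyrate Krt8 and Krt18. With the combination they were Krt7, Krt8, Krt18 and Krt79.

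Keratins of other layers were counted in the same way. Of 7 basal and stress keratins, UK5099 raised 5 and lowered 0, butyrate raised 2 and lowered 1, and both drugs together raised 5 and lowered 0. Over all genes, 1.84%, 3.54% and 6.42% were called in these 3 comparisons. The median coefficients of these 7 keratins were 1.59, 0.77 and 1.29, against -0.61, -0.67 and -1.10 over the 6 simple keratins. Over all genes tested the medians were -0.03, -0.07 and -0.11, and over those with a mean of 1 TPM or more -0.12, -0.30 and -0.41. After median of ratios scaling the 7 keratins had medians of 1.74, 1.09 and 1.75, and the 6 simple keratins -0.46, -0.36 and -0.63. Krt6b and Krt16, which mark stressed and regenerating epithelium, had coefficients of 5.92 and 3.28 with UK5099. Krt6b is close in sequence to Krt6a, so that its level is uncertain. Krt17 was called lower with butyrate, at -1.03, but not after median of ratios scaling. That scaling gave 4 higher and 0 lower for butyrate, where 3% of all genes were called. Of 9 suprabasal keratins in the table, UK5099 raised 4, butyrate 5 and the combination 4, and Krt79 was lower with the combination, at -1.50. In the voom fit butyrate and the combination raised 7 each, where that fit called 2600 and 3467 of the 24674 genes. The median coefficient of these suprabasal keratins for UK5099 was 2.29 in that fit and 0.22 on log2(TPM + 1). Krt13 (4.399) and Krt10 (5.03) led the rise with UK5099. Krt10, Krt13, Krt78 and Krt1 were called for a negative interaction, at -3.03, -2.33, -2.26 and -1.14, the sign that Krt20 had, whereas Krt17 had an interaction of 1.17.

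Genes whose products bind keratin filaments mostly stayed within the limits. Of 16 such genes, 1 was higher with UK5099, and with butyrate and with the combination 1 was higher and 2 were lower each. Over all genes, 1.84%, 3.54% and 6.42% were called in these comparisons. Evpl, which codes for envoplakin of the desmosome and the cornified envelope, was higher in all 3 comparisons, with coefficients of 1.86, 1.40 and 2.29. Pkp2, a desmosomal plaque gene, was lower with butyrate (-1.07) and the combination (-1.56), and so was Eppk1, which codes for the keratin linker epiplakin (-1.02 and -1.07). The list's median coefficients were 0.32, -0.29 and -0.15. After median of ratios scaling butyrate lowered 0 of the 16, where 3% of all genes were called. The combination then raised 3 and lowered 1, where 4.59% of all genes were called, so that the balance turned. In the voom fit butyrate again lowered 2, where 2600 of the 24674 genes were called.

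Of 20 other luminal and simple epithelial genes, UK5099 lowered 2, butyrate 5 and the combination 8, and 0 were higher on the deposited scale. The shares called over all genes were 1.84%, 3.54% and 6.42%. The median coefficients of the list were -0.27, -0.32 and -0.75. With median of ratios scaling 2 were lower with butyrate and 4 with the combination, in which 1 was higher. That scaling called 3% and 4.59% of all genes for these 2 groups, and the list's medians were -0.13, -0.01 and -0.36. The tight junction gene Cldn3 was lower with UK5099 (-1.78), butyrate (-1.08) and the combination (-2.65), as was Prom1 (-1.61, -1.32 and -2.26), a surface marker of luminal progenitors. Epcam, an adhesion molecule of epithelial cells, was lower with butyrate (-1.65) and the combination (-2.48).

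The organoids expressed basal epithelial markers in all groups. Deposited TPM was summed over the genes of each list here, and genes of short span weigh more in such sums. The sums therefore compare samples and not cell types. Vehicle samples had a summed level of 4 basal markers of 3545 to 3585 TPM, UK5099 samples 9805 to 10303, butyrate samples 4519 to 4709 and combination samples 8114 to 8364 TPM. Of markers of other cell types, 9 mesenchymal genes summed to 10.2 to 10.8 TPM in vehicle and 11.02 to 11.4 with butyrate, but to 4.396 to 4.93 with UK5099 and 2.49 to 2.89 TPM in the combination. Of these, Vim was at 7.98 TPM in vehicle and at 1.66, 0.364 and 0.154 TPM in the treated groups in the order used above, lowest in the combination as was Krt8. Dcn went the other way with butyrate, from 0.762 TPM in vehicle to 9.51 TPM, and made up most of the butyrate sum, while it was at 1.22 TPM with UK5099 and 1.41 TPM in the combination. The 3 immune markers in the table of 6 summed to 23.8 to 24.8 TPM in vehicle and 29.7 to 30.9 with UK5099, and to 66.2 to 68.6 with butyrate and 86.4 to 97.1 TPM in the combination, nearly all of it Cd68, while Ptprc, the pan-leukocyte marker, was under 0.01 TPM in every group. The 4 endothelial genes summed to under 0.05 TPM in each sample and the 4 neuroendocrine genes in the table to between 0.185 and 1.13 TPM. The 5 seminal vesicle markers on the list were not analysed here. The part of these cells in the keratin changes was not tested.

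The genes whose 3 coefficients against vehicle lay nearest to those of Krt8 and Krt18 were sought among 10183 protein-coding genes with at least 1 TPM in vehicle, as a description, since the 3 comparisons share vehicle. Nearest to Krt8 were Cxcl1, Ccn2, Lgals3bp, Anpep and Dtx4, at distances of 0.29 to 0.44. Cxcl1, which codes for a chemokine that draws neutrophils, had a mean of 529.8 TPM in vehicle and 76.6 TPM in the combination, with UK5099 at 241 and butyrate at 175 TPM. Ccn2, a matricellular gene, had coefficients of -1.60, -1.48 and -2.95. Nearest to Krt18 were Arhgef40, Ace, Hmgn2-ps, Cxcl5 and Ildr1, at distances of 0.15 to 0.21. Arhgef40 went from 23.9 TPM in vehicle to 11.7, 8.39 and 5.002 TPM. The simple keratins described here were left out of this search, so their nearness to Krt8 and Krt18 was not ranked. No keratin from outside that set was among the genes listed.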

How the data were processed

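Per the labels, ribosomal RNA was depleted, mRNA enriched and the second strand marked, and read pairs were sequenced. The authors deposited TPM per gene for the 12 samples. The submitters' processing notes name STAR 2.7.9a, Partek and GRCm39, whereas the study's methods for this experiment name fastp, another STAR release, GRCm38 and RSEM. Only 2.08% of the table's nuclear genes matched GENCODE's GRCm38 start and end, so the table's own coordinates are given. The deposited length column was stop minus start in 100% of genes, and the deposited TPM stepped as fragments over this span with introns, which gave fragments per sample. Between 57.0% and 60.6% of values were whole fragments within 0.02.

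The fit followed the study's methods, with limma on log2(TPM + 1) and terms for UK5099, butyrate and their interaction, on all 12 samples and 24674 genes, with Benjamini-Hochberg adjustment over all genes. The pseudocount of 1 was chosen here. Named genes were the 6 members, up to 4 called genes with the largest absolute coefficient per list and comparison, the 5 genes nearest to Krt8 and to Krt18 by Euclidean distance of the 3 coefficients against vehicle, and neighbouring keratins; Krt5, Krt6a, Plec and Cldn4 also met this rule and are not described, and 1 further gene is not reported here. Other named values, of Vim, Dcn, Cd68 and Ptprc, were chosen with values known. The members and lists were chosen with earlier results of these data known. Alternatives were other pseudocounts, a filter at a mean of 1 TPM, median of ratios scaling, quantile normalisation, voom on fragments, exonic length, nuclear protein-coding genes rescaled, each sample left out, a replicate block, a robust trended prior, 6-sample fits and other limits. Added after seeing the data were fits without both first replicates of UK5099 and the combination, Krt8 with Krt8-ps, and ratios per length of the principal transcript with and without it, taken from GENCODE. Simulated fragments for 24674 genes were given changes of a fixed size, well beyond the limit of 1, with the same dispersion in every gene. Of these, 172 of 200 changed genes were recovered for UK5099 and 181 of 200 for butyrate. Of those with at least 4 TPM, 130 of 131 and 138 of 138 were recovered. Smaller changes were not simulated, so recovery of coefficients near the limit of 1, such as those of Krt18 and Krt23 with UK5099, was not tested. Fits were made with limma 3.58.1 in R 4.3.3 and tables and figures with pandas 2.3.3 and matplotlib 3.10.9 in Python 3.11.15.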

Additional observations from a re-analysis of the deposited data

Results flagged for a closer look

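The limma interaction term had an adjusted p-value under 0.01, with no limit on its size, for 2 of the 6 keratins, where 13.4% of all genes passed, and with the limit of 1 on size for 1, where 1.01% did. For Krt20 the difference was -2.68 on log2(TPM + 1), with the UK5099 samples at 24.1 to 27.9 TPM and the combination at 3.46 to 5.41 TPM. For Krt18 it was 0.20, with 356 to 366 TPM in the combination, and was under the limit of 1 on size. In the voom fit the terms of Krt7 and Krt23 were also under 0.01, and the share of all genes there was not counted.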

How the results depend on the processing

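Over all settings that kept both limits, 833 of 864 coefficients of the 6 keratins kept their direction and call, 21 gained a call, 9 lost it and 1 turned its sign, the interaction of Krt19, which ranged from -0.0091, without the first combination replicate, to 0.12 with each sample left out. The number of keratins called for UK5099 against vehicle was 4 with quantile normalisation (1.64% of all genes), 5 at an adjusted p under 0.05 with over 1.5-fold (5.52%) and 6 at an adjusted p under 0.01 with no limit on the coefficient (33%). With no such limit it was 5 for butyrate (45.6% of all genes), 6 for the combination against butyrate (27.5%), 6 against UK5099 (43%) and 2 for the interaction (13.4%), and at the looser limits it was 2 and 5 for the combination against butyrate and against UK5099 (2.7% and 10% of all genes). With each sample left out it was 2 to 3 for UK5099, where the third was Krt23 without the second vehicle replicate, and otherwise unchanged.

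Median of ratios scaling moved mean levels, in the order vehicle, UK5099, butyrate and combination, to 349.9, 240.9, 230.3 and 197 TPM for Krt7, 772, 340.1, 289 and 138 TPM for Krt8, 1237, 699, 643 and 418 TPM for Krt18, and 1557, 1194, 1439 and 1153 TPM for Krt19, and to 3.61, 4.93 and 8.61 TPM for treated Krt23. The log2 change in ratio from vehicle with quantile normalisation was -0.30, -0.28 and -0.77 for Krt8 to Krt18, 2.09, 2.48 and 3.64 for Krt23 to Krt19, and for butyrate 0.83 for Krt7 to Krt8 (0.81 with Krt8-ps added to Krt8) and 0.78 for Krt19 to Krt18. As a share of deposited keratin TPM, the simple keratins came to 35.1%, 12.1%, 19.4% and 8.54%, in the group order given above. Quantile normalisation of TPM left this share close to that, at 34.9% for vehicle, 19.8% for butyrate and 9.02% for the combination. Exonic length gave 44.1%, 17.4%, 26.9% and 13.1% over the 4 groups. The shares per principal transcript used in the Results were 46.5%, 19.1%, 29.4% and 14.7%.

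Replicate numbers showed no detectable pairing of the samples. A correlation of deviations over 0.1 was found in 0 of 18 same-numbered pairs, and 2 of 12 samples correlated best with their own number. Whether same-numbered samples shared an animal or culture is not given in the labels, and these correlations cannot settle it. With the replicate block 2, 3 and 4 keratins were called for UK5099, butyrate and the combination against vehicle, and 36 of 36 coefficients kept direction and call. At 109 to 165 fragments in some vehicle samples, Krt20 and Krt23 are the least precise of the 6.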
